A study of Drosophila melanogaster with 2 samples.

Results

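The Polycomb group genes ph-p, ph-d, Pc, Psc, Su(z)2, E(z), esc, Sce, pho and Scm of Drosophila melanogaster were examined for binding of ERR, the fly oestrogen-related receptor, in embryos. These 10 genes, among 13945 protein-coding genes, were chosen by name with earlier results of these data known. A region was counted at a gene when its summit, the base of highest signal, lay inside the gene or within 2 kb of any of its annotated transcript starts. Binding had been mapped by chromatin immunoprecipitation with sequencing (ChIP-seq) in whole embryos of both sexes pooled, aged 0 to 24 h. The flies came from 1 transgenic line that stably carried ERR with GFP fused to its C-terminus. The description of each sample gives an anti-GFP antibody for the precipitation, while another label field names the antibody target as ERR. The 2 biological replicates, numbered 2 and 3, made up 1 group, and the labels name a possible control that was not used here, so no comparison between conditions could be made.

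Polycomb group proteins keep developmental genes, the Hox genes foremost, silent in the cells where they are not needed. They act in 2 main complexes. Polycomb repressive complex 2 methylates histone H3, with E(z) as its methyltransferase and esc as a WD-repeat subunit. Polycomb repressive complex 1 joins Pc, whose chromodomain binds the methylated histone tail, to the polyhomeotic proteins of ph-p and ph-d, to the ring finger proteins of Psc or its relative Su(z)2, and to Sce, the ring finger enzyme that ubiquitinates histone H2A. The zinc finger protein of pho binds DNA at Polycomb response elements, and Scm is a partner protein related to the polyhomeotic proteins through its SAM domain. In the fly embryo ERR is known above all as an activator of sugar metabolism genes.

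The pooled list had a region at all 10 genes, beside 72.5% of protein-coding genes, and the strongest of the 10 lay at ph-p. That list and both replicate lists hold background as well as peaks, per the notes deposited with the files, so an entry in them below the authors' optimal set is not by itself evidence of binding. The sequences that carry the results are given here, each read on the + strand of the RefSeq release 6 genome, which is the dm6 build, and each centred on the summit of the gene's region except that of Scm. The first pair sets the strongest region of ph-p (chrX:2137231-2137431) beside the strongest of its tandem copy ph-d (chrX:2123774-2123974). Capitals in the ph-p sequence mark bases with no aligned counterpart at ph-d. The other three, an intronic ph-p region (chrX:2134356-2134556), the only pooled region of pho (chr4:1180561-1180761) and the 100 bases upstream of the Scm start (chr3R:9637612-9637711), are shown for the motifs they hold. Capitals there mark matches on either strand to 3 exact motifs, the Pho core GCCAT, the GAGA factor motif with the letters GAGAG and the DREF site TATCGATA, and sites 1 base away from the ERR motif TNAAGGTCA. The ph-d sequence held none of these and is in lower case throughout. At Scm the capitals mark the DREF site alone, since the ERR-like site there runs past the left end of the printed stretch and the Pho core lies outside it.
ph-p region 1: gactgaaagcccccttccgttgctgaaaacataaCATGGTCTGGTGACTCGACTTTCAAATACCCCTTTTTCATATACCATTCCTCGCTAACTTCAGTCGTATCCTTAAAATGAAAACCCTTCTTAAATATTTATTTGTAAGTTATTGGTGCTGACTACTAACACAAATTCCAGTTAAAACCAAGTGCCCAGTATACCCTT
ph-d region 1: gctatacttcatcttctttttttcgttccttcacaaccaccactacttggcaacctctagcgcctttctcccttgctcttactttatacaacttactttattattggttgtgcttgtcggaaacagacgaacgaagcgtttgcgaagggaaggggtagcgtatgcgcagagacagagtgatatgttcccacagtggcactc
ph-p region 4: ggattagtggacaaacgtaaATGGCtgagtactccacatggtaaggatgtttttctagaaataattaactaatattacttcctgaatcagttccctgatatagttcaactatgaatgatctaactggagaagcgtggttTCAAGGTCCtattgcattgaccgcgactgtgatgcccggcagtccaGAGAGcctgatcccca
pho region 1: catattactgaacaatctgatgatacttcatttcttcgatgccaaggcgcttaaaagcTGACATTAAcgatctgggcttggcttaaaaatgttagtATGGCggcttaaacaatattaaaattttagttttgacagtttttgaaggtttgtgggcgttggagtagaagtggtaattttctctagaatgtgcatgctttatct
Scm upstream: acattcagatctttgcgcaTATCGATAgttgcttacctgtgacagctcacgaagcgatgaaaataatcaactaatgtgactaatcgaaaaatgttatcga

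Counted over the 10 genes, 10 regions belonged to the optimal set of 2892 regions, 40 to the pooled list, 32 to the replicate 2 list and 44 to the replicate 3 list, each of these 3 lists holding 30000 regions. The optimal set was the authors' selection by the irreproducible discovery rate. It was identical to the 2892 pooled regions of highest signal, the lowest of which had a signal of 69.2. ph-p held 5 optimal regions, Psc and Su(z)2 held 2 each and Pc held 1, so that 4 of the 10 genes had an optimal region, beside 22.5% of all protein-coding genes. The 4 are among the 6 genes of Polycomb repressive complex 1, whose other members, ph-d and Sce, had regions below the set only, as did E(z), esc, pho and Scm. Because the genes were picked with these regions in view, nothing is read from that share. Signal is the peak caller's value for a region and is not scaled between lists, so ranks are given when lists are set side by side. In whole embryos, binding in few cells and weak binding in many cells cannot be told apart.

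**Figure D1:**
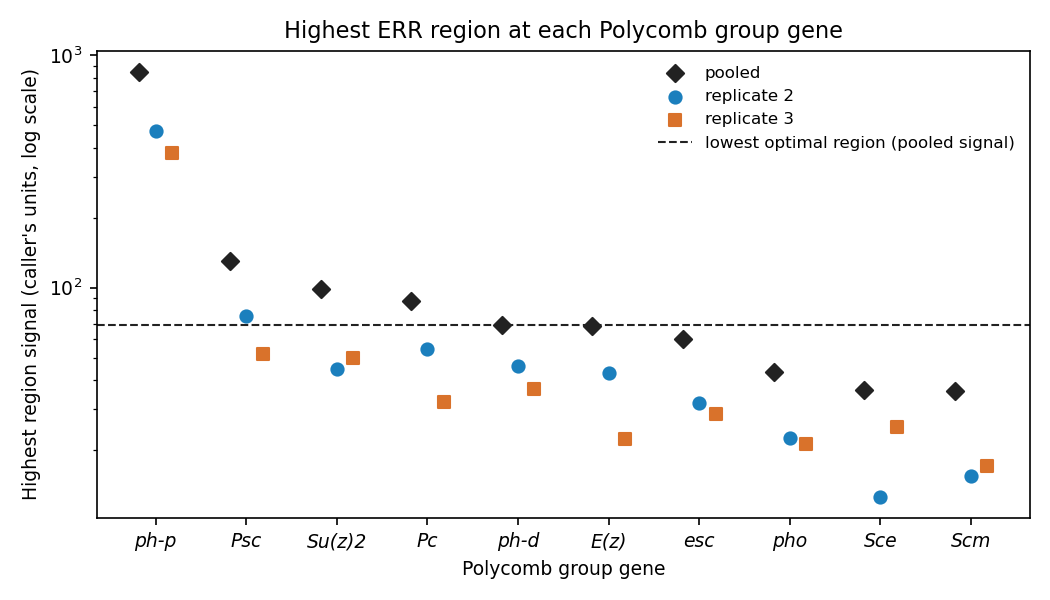
Highest region signal at each of the 10 genes (caller's units, log axis) in the pooled list (black diamonds), replicate 2 (blue circles) and replicate 3 (orange squares), with the lowest optimal signal of 69.2 as a dashed line for the pooled values. ph-p stood above the other genes in all 3 lists, and ph-d and E(z) lay just under the line.

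At ph-p (FBgn0004861; X, 2126210 to 2138371, minus strand), 5 optimal summits fell within 3486 bp at the 5' end of the gene. Its strongest region (2137178 to 2137552), in an intron 476 bp upstream of one of the 3 annotated starts, had a signal of 847 in the pooled list, 471 in replicate 2 and 381 in replicate 3. It ranked at position 16 in each of the 3 lists, and ph-p was at position 25 among all protein-coding genes ordered by their highest pooled region. The region next to it (2137707 to 2138085), in the 5' UTR, had signals of 251 pooled (rank 184), 149 in replicate 2 (rank 173) and 109.9 in replicate 3 (rank 196). These 2 regions thus held nearly the same place in both replicates.

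The remaining ph-p regions were weaker and less even. An intronic region 1224 bp downstream of a start (2135196 to 2135599) had signals of 126 pooled (rank 874), 76.1 in replicate 2 (rank 823) and 48.0 in replicate 3 (rank 1243). A second intronic region at 2166 bp (2134254 to 2134657) had 83.8 pooled (rank 1984), 26.1 in replicate 2 (rank 6565) and 49.7 in replicate 3 (rank 1147). The fifth, 20 bp from a start and inside the 5' UTR (2136400 to 2136803), had 78.8 pooled (rank 2247), 32.3 in replicate 2 (rank 4508) and 42.4 in replicate 3 (rank 1597). The last 2 therefore ranked within the first 2892 regions of replicate 3 and outside them in replicate 2.

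Several optimal regions at a gene were uncommon in the set as a whole. At least 2 were found at 5.36% of protein-coding genes, and at least 5 at 0.28%, or 39 genes. No other locus held 5 optimal summits within 3486 bp, a span that was taken from ph-p itself. Within 5 kb there were 7 such loci, and within 10 kb there were 30.

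**Figure D2:**
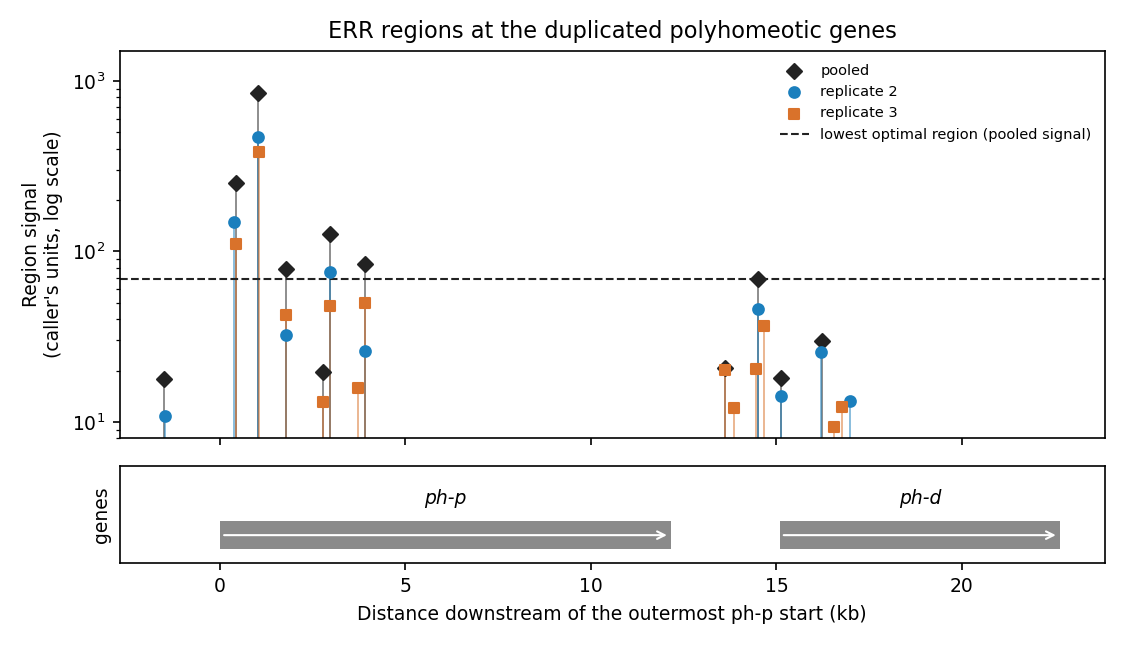
Region signal (caller's units, log axis) against distance downstream of the outermost ph-p start (kb), for the pooled list and both replicates, above the extents of ph-p and ph-d. The 5 optimal regions of ph-p crowd at its 5' end, while ph-d, with a highest pooled signal of 68.9, has none above the dashed line at 69.2.

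ph-d (FBgn0004860; X, 2115727 to 2123286, minus strand) is the downstream copy of the tandem pair and encodes a protein closely related to that of ph-p. It had 4 pooled regions and no optimal one. The highest (2123672 to 2124075), intergenic and 588 bp upstream of a start, had signals of 68.9 pooled (rank 2914), 46.2 in replicate 2 (rank 2285) and 20.4 in replicate 3 (rank 7402). Replicate 3 placed its own highest ph-d region closer to the start, with the summit 430 bp upstream (2123511 to 2123920) and a signal of 36.5 (rank 2249). In each replicate taken alone ph-d thus ranked within the first 2892 regions, while in the pooled list it fell 22 ranks short of them.

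The 2 copies were aligned to see how much of the bound sequence they share. The longest alignment, of 4480 bp at 91.96% identity, covered the 3' part of the genes (ph-p 2126824 to 2131227) and held no optimal summit. Towards the 5' end the copies matched in pieces, of 529 bp at 90.7% identity, 387 bp at 70.5% and 358 bp at 81.0%. The strongest ph-p summit fell between the first and the second of these, in 208 bp (2137265 to 2137472) for which ph-d holds only 15 bp, and 167 of those bases are the capitals of ph-p region 1 printed above. The second ph-p summit lay in the next interruption, of 98 bp (2137856 to 2137953), where ph-d has 209 bp. Its summit in replicate 3, at 2137949, also lay there, while that in replicate 2, at 2137985, lay inside the 358 bp alignment. Of this second region 74.1% was aligned to ph-d, and of the strongest region 44.5%. The other 3 ph-p summits fell in 5519 bp between alignments, where ph-d has 1857 bp. The highest pooled ph-d summit lay inside the 387 bp alignment, and 90.6% of its region was aligned to ph-p. The highest ph-d summit of replicate 3, at 2123716, lay at the edge of that alignment, which begins at 2123712 beside those 15 bp. As placed by the pooled list, none of the 5 optimal ph-p summits therefore had an aligned counterpart in ph-d at the minimum alignment length of 100 bp. For the second region this depended on the list. Whether this sequence bears on the difference in signal between the copies was not tested.

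Because reads from duplicated sequence can be lost or split between copies, the share of 50-base words that occur once in the genome was measured in each region. It was 100% in all 5 ph-p regions and in the ph-d region. With words of 36 bases it was 95.9% in the strongest ph-p region and 100% in the others. Among all optimal regions, 10 of 2892 (0.346%) had a share under 90% with 50-base words. The read length is not given in the sources used here.

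Pc (FBgn0003042; 3L, 21306138 to 21318020, minus strand) had 1 optimal region, and it lay nearer to another gene. This region (21319743 to 21320146) had signals of 87.7 pooled (rank 1811), 54.2 in replicate 2 (rank 1673) and 32.2 in replicate 3 (rank 2918). Its summit was 1925 bp upstream of the Pc start, close to the 2 kb limit of the rule, and 62 bp from a start of Rab26, which encodes a small GTPase of vesicle traffic. A weaker region at the Pc start itself (21317881 to 21318284) had a summit 63 bp upstream, with signals of 53.6 pooled (rank 4619), 30.2 in replicate 2 (rank 5090) and 25.4 in replicate 3 (rank 4788). Pc thus had a region at its own start in the pooled list and both replicates, outside the first 2892 of each. Beyond the 3' end of Pc, outside the rule, an optimal region with a signal of 412 (rank 74; 21304420 to 21304727) lay 13443 bp from the Pc start and 81 bp from a start of CG11309.

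Psc (FBgn0005624; 2R, 12965997 to 12980994, minus strand) and Su(z)2 (FBgn0265623; 2R, 12996501 to 13007911, plus strand) are neighbours transcribed away from each other, with 15506 bp between them. Each had 1 optimal region at its 5' end and 1 in an intron. At the 5' end of Psc (12980602 to 12981005, in the 5' UTR, 146 bp from the nearer start) the signals were 88.8 pooled (rank 1752), 46.2 in replicate 2 (rank 2288) and 43.4 in replicate 3 (rank 1507). At the 5' end of Su(z)2 (12996224 to 12996627, 75 bp upstream of a start) they were 98.8 pooled (rank 1421), 44.5 in replicate 2 (rank 2484) and 49.9 in replicate 3 (rank 1138). The 2 starts therefore had similar signals, and both regions ranked within the first 2892 of each replicate.

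The intronic region of Psc (12975393 to 12975796) lay 5063 bp downstream of the nearer start and was the strongest at Psc, with signals of 130.4 pooled (rank 806), 75.4 in replicate 2 (rank 845) and 51.7 in replicate 3 (rank 1036). The intronic region of Su(z)2 (12998412 to 12998815) lay 1491 bp from a start, with 82.3 pooled (rank 2064), 42.1 in replicate 2 (rank 2766) and 39.5 in replicate 3 (rank 1885). These too ranked within the first 2892 regions in both replicates. Between the genes there were 11 pooled regions, including that at the Su(z)2 start. Of these, 1 more was optimal (12985082 to 12985227), with a signal of 95.9 pooled (rank 1511), 56.4 in replicate 2 (rank 1530) and 40.6 in replicate 3 (rank 1778). Its summit lay 4163 bp upstream of Psc and 210 bp from a start of the noncoding RNA gene lncRNA:CR44339, so the rule gave it to neither protein-coding gene.

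**Figure D3:**
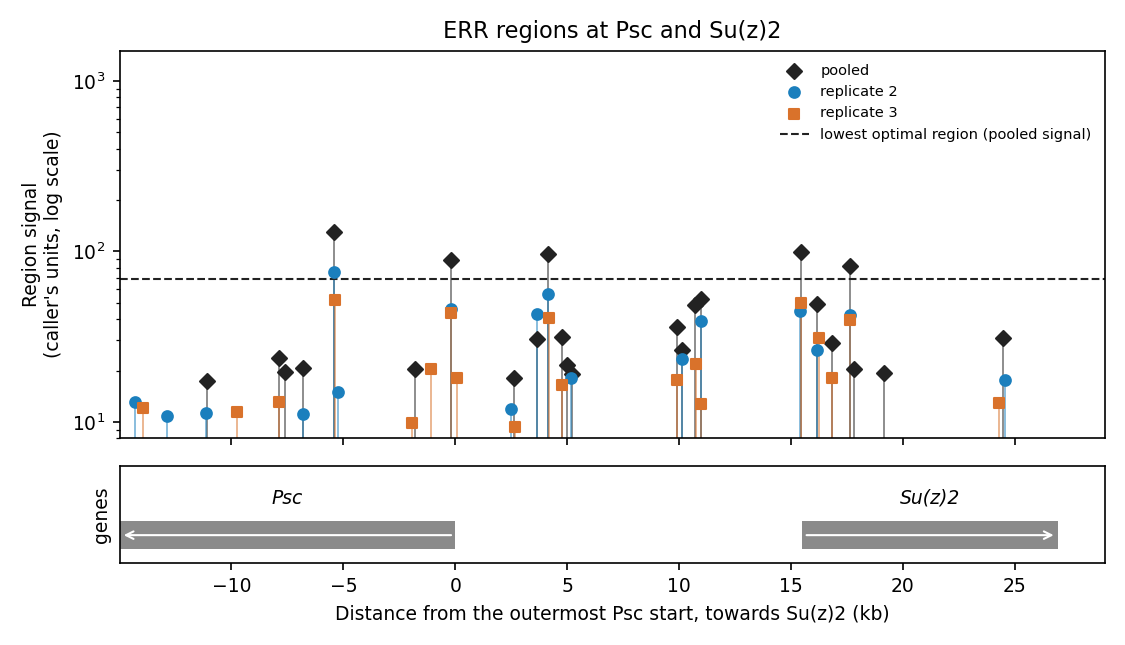
Region signal (caller's units, log axis) against distance from the outermost Psc start towards Su(z)2 (kb), for the pooled list and both replicates, above the extents of the 2 genes. The dashed line at 69.2 is for the pooled values. Of the 5 pooled regions above it, 2 lie in Psc, 1 between the genes and 2 at Su(z)2.

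Sce (FBgn0003330; 3R, 27680431 to 27682029, minus strand) was the weakest of the Polycomb repressive complex 1 genes. Its highest pooled region (27681632 to 27682035), in the coding sequence 195 bp from the start, had a signal of 36.3 (rank 8926). Replicate 3 had a region there of 25.1 (rank 4917). Replicate 2 had no summit within 100 bp, and its only region at Sce, 865 bp from the start, had a signal of 12.6 (rank 22342). Sce was thus the only gene of the 10 whose highest pooled region had no match in a replicate.

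The Polycomb repressive complex 2 genes had their highest pooled regions at their starts, below the optimal set. At E(z) (FBgn0000629; 3L, 10634575 to 10638130, minus strand), the region 28 bp downstream of a start (10637900 to 10638303) had signals of 68.7 pooled (rank 2932), 43.0 in replicate 2 (rank 2658) and 16.7 in replicate 3 (rank 10988), with a −log10 q-value in the authors' replicate 3 list of 1.10. The highest replicate 3 region of E(z) lay elsewhere, 326 bp downstream of the nearer start, with a signal of 22.2 (rank 6244). Its replicates differed most among the genes with a match in both, since the replicate 2 signal at the start region was 2.57 times that of replicate 3. This summit also lay 44 bp from a start of Cnep1r2. At esc (FBgn0000588; 2L, 11827204 to 11829405, minus strand), the region 36 bp upstream of the start (11829239 to 11829642), inside an intron of Pde1c, had 60.3 pooled (rank 3733), 32.0 in replicate 2 (rank 4581) and 28.7 in replicate 3 (rank 3742). The esc region thus held a similar rank in all 3 lists.

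The DNA-binding protein gene pho (FBgn0002521; 4, 1172469 to 1181628, minus strand) had 1 pooled region (1180459 to 1180862), in an intron 967 bp from the start. Its signals were 43.2 pooled (rank 6694), 22.5 in replicate 2 (rank 8489) and, for the nearest summit, 16.2 in replicate 3 (rank 11711). The highest pho region of replicate 3 was another one, at 1112 bp, with a signal of 21.2 (rank 6821). At Scm (FBgn0003334; 3R, 9633359 to 9637611, minus strand), a region 7 bp upstream of the start (9637416 to 9637819) had 35.9 pooled (rank 9111), 15.4 in replicate 2 (rank 16366) and 16.7 in replicate 3 (rank 11029). Both genes lay well under the optimal set. Their pooled signals were above the median of 26.7 over all regions of the pooled list. They were below 47.3, the median of the highest pooled signal over protein-coding genes with a region. The Scm signal in replicate 2 was below the median of 16.3 over the replicate 2 list.

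By highest pooled signal the genes ran in the order ph-p, Psc, Su(z)2, Pc, ph-d, E(z), esc, pho, Sce and Scm. Of the 9 pairs of neighbours in this order, 4 kept it in both replicates: ph-p over Psc, Psc over Su(z)2, ph-d over E(z) and esc over pho. The other 5 pairs were the opposite way round in a replicate, so their order is within the spread between replicates. The median highest pooled signal of the 10 genes was 68.8. Over all protein-coding genes it was 33.9, with a value of 0 for genes without a region, and it was 47.3 over the 72.5% of genes that had one. The 10 genes are longer than most, at a median of 8.36 kb against 2.17 kb, and a longer gene can hold more summits. Among the 7431 protein-coding genes between 1.599 and 14.998 kb long, the range of the 10, 24.6% had an optimal region. These genes were matched to the 10 by the limits of length only, not by the lengths within them.

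The position of the limits mattered for some of the genes. Just outside the optimal set, whose lowest signal was 69.2, lay ph-d with 68.9 and E(z) with 68.7, and the weakest optimal region of the 10 genes was that of ph-p with 78.8. Just inside the distance limit lay the Pc region at 1925 bp. The nearest pooled summits beyond 2 kb were at Sce, with a signal of 23.8 at 2419 bp, and at ph-d, with 22.3 at 2451 bp. A limit of 5 kb left the count of genes at 4, beside 33.4% of protein-coding genes, and giving each region only to the gene with the nearest start left 3, without Pc, beside 13.6%. The 3000 highest pooled regions gave 6 genes, beside 23.1%. The first 2892 regions of replicate 2 also gave 6, beside 22.9%, and those of replicate 3 gave 4, beside 21.8%.

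Over the 10 optimal regions, 7 ranked within the first 2892 of both replicates, beside 63.2% (1827) of the 2892 optimal regions. The 3 others were the 2 weaker ph-p regions above and the Pc region, whose rank of 2918 in replicate 3 was just outside. The ratio of replicate 2 to replicate 3 signal had a median of 1.15 at the 10 regions and ran from 0.525, at the intronic ph-p region at 2166 bp, to 1.68, at Pc. Over the 2732 optimal regions matched in both replicates the median ratio was 1.33, with quartiles of 1.08 and 1.65. The 2 ph-p regions with ratios of 0.525 and 0.762 lay below the lower quartile, as did 0.892 at the Su(z)2 start, 1.06 at the Psc start and 1.06 in the Su(z)2 intron. The lowest signal a list reports was 10.2 in replicate 2 and 9.26 in replicate 3.

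**Figure D4:**
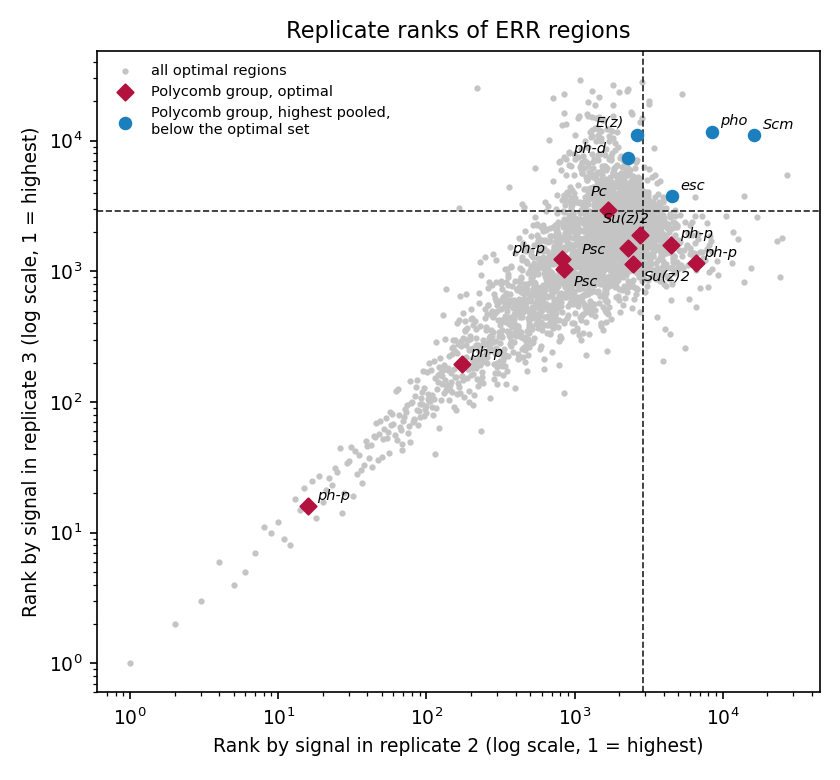
Rank by signal in replicate 3 against rank in replicate 2 (log axes, 1 is highest) for all optimal regions matched in both (grey), the 10 optimal regions at the Polycomb group genes (red diamonds) and the highest pooled regions of the genes without one (blue circles; Sce has no match in replicate 2). The dashed lines mark rank 2892, and 7 of the 10 red points lie within both.

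The summits were also compared for the features and motifs under them. Of the 10 optimal summits, 4 lay in a 5' UTR, 5 in an intron and 1 in intergenic sequence, beside 16.8%, 40.7% and 40.2% of all optimal summits. The 4 in a 5' UTR include that of Pc, which lies in annotated 5' UTR and also in coding sequence of Rab26. It was counted as 5' UTR only, so that 0 were counted in coding sequence, beside 1.0% of all optimal summits. The monomeric site of ERR was searched as AAGGTCA and, with the flanking bases that oestrogen-related receptors prefer, as TNAAGGTCA, on both strands within 100 bases of each summit. The second contains the first. None of the 10 optimal regions and none of the 6 lower regions held either, which 3.8% and 1.63% of all optimal regions did. A site 1 base away from TNAAGGTCA was present in 1 of the 10 and 2 of the 6, beside 13.8% of all optimal regions. With positions counted from 1 at the 5' end of the motif, the ph-p site differed by A9C and lay 43 bp from its summit, in ph-p region 4. The sites at pho, 38 bp from the summit, and at Scm, 4 bp from it, both differed by G5T.

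Motifs of DNA-binding proteins that work with Polycomb and trithorax group proteins were searched in the same windows. GCCAT, the core of the sites bound by the Pho protein, was present in 3 of the 10 regions (ph-p region 4, Pc and the Psc intron), beside 27.9% of all optimal regions. It was also present in 2 of the 6 lower regions, those of pho and Scm, and in pho and Pc it lay 2 bp from the summit. GAGAG, the letters of sites bound by GAGA factor, the product of Trl, was present in 5 of the 10, beside 29.5%. The Psc start held 5 matches, some overlapping, and the Su(z)2 start held 4, and 6.64% of all optimal regions held 3 or more. TGAGTG, the letters of Zeste sites, was present once, in the second ph-p region, beside 11.2%. TATCGATA, the site of the promoter factor DREF, was present at Scm, 16 bp from the summit, and in none of the 10, beside 5.53%. GGTCACACT, a form of the site of the promoter factor M1BP, was present at none of the genes, beside 2.84%. It shares the letters GGTCA with the ERR motifs. A match is a description of these letters and not evidence of a bound site.

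The other genes of the Polycomb group and those of the trithorax group, which counteracts it, were counted by the same rule. Their lists were drawn up from general knowledge with earlier results of these data known, so nothing is read from the shares. Of 21 other Polycomb group genes, 11 (52.4%) had an optimal region, and of 27 trithorax group genes 13 (48.1%) had one, beside 22.5% of protein-coding genes. Within 500 bp of a start the counts were 8 and 10, beside 15.1%, and 3 of the 10 genes. Median gene lengths of 7.01 and 7.59 kb in these lists are also above that of all genes. The genes with no pooled region were sxc, Set1 and vtd.

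Among the other Polycomb group genes the highest signal was at phol, the paralogue of pho, with 376 pooled (rank 86), but that summit lay 1522 bp from the phol start, in an intron of CG3552. Dsp1, which encodes an HMG-box protein, had 198 (rank 316) at 669 bp, in an intron of CG9921. At lolal, which encodes a BTB-domain protein, a signal of 193 (rank 334) lay 2 bp from a start. Kdm2, which encodes a histone demethylase, had 4 optimal regions, the highest with 139.6 (rank 686) at 93 bp. Of these 4 genes, lolal and Kdm2 therefore had their highest region at their own start.

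Among the trithorax group genes the highest signal was at osa, a subunit gene of the Brahma chromatin remodelling complex, with 487 pooled (rank 50) in an intron 13943 bp from a start. That summit lay 712 bp from a start of the noncoding RNA gene lncRNA:CR46035. Trl had 417 (rank 70) in an intron 1537 bp from a start, and a start of CG42507 lay equally near. The histone methyltransferase gene trx had 192 (rank 336) in an intron at 2964 bp. The fourth, mor, another Brahma complex subunit gene, had 144.8 (rank 643) at 808 bp, in the 5' UTR of Hel89B. None of these 4 regions lay within 500 bp of a start of the gene it was counted for.

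**Figure D5:**
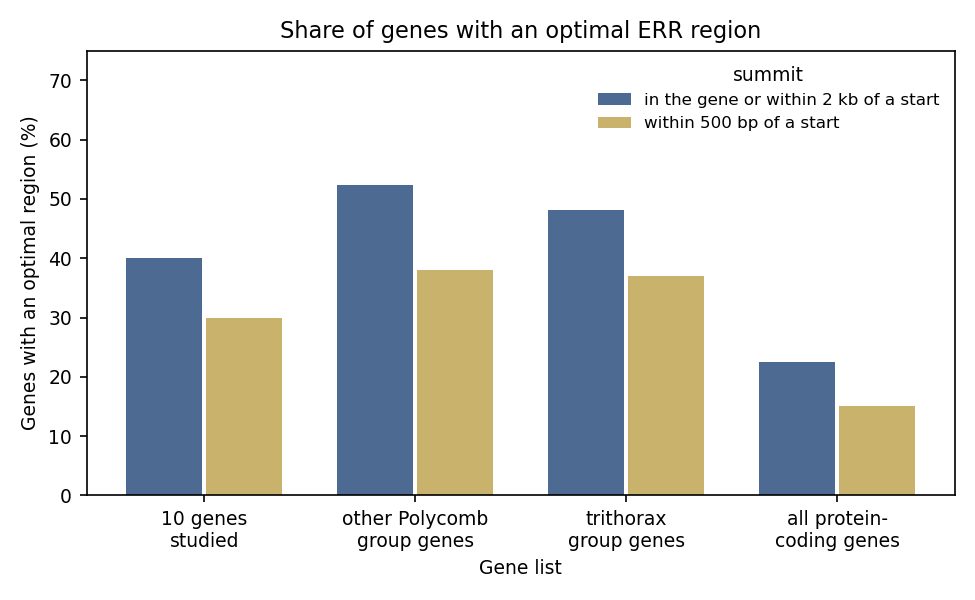
Share of genes with an optimal ERR region (%) in the 10 genes studied, the other Polycomb group genes, the trithorax group genes and all protein-coding genes, for summits in the gene or within 2 kb of a start (blue) and within 500 bp of a start (tan). The 3 lists lie at 40.0%, 52.4% and 48.1% by the wider rule and all protein-coding genes at 22.5%. Gene lengths differ as given in the text, and the lists were chosen with earlier results of these data known.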

How the data were processed

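The authors deposited narrowPeak lists of ChIP-seq regions on the dm6 build, and 4 were analysed: 1 per replicate, 1 from the pooled replicates and the optimal set. How the lists derive from each other is taken from notes that accompany the files, which describe the replicate and pooled lists as peaks and background. Neither the aligner nor the caller is named in the sources used here. Signal, as the authors deposited it, is the peak caller's value, which is on a separate scale in each list. Since the authors' −log10 q-value was 3.89 for every optimal region, ranks were by signal. The lists on dm3 were not used. No read counts were at hand, so the depth is unknown.

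Genes and starts were taken from the Ensembl 115 annotation (BDGP6.54), and sequence came from the RefSeq release 6 genome, whose arms contain all the regions. The 10 genes, the gene lists and the motifs were chosen with earlier results of these data known, so values are descriptions and no test was run. Genes named beside the 10 were those with a start nearer to an optimal summit and up to 4 of each list with the highest signal. CG11309, lncRNA:CR44339, lncRNA:CR46035, Cnep1r2, Pde1c, CG3552, CG9921, CG42507, Hel89B, SpdS, Cals and the genes without a region were named after their values were seen. The symbols calypso and lid matched no gene model. An optimal region was matched in a replicate to the nearest summit within 100 bp. The ph copies were aligned with blastn (BLAST+ 2.17.0), and the other steps used Python 3.11.15. The assignment of summits to genes, the motif searches and the share of unique words were tested on simulated data, and the other steps were not. Coordinates are 1-based. A value at Sce in the closing section is not reported here.

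Alternatives were other distances, any overlapping base, the higher-signal 50% of the set, each replicate alone, other matching distances, motif windows and word lengths. The 3000 highest pooled regions, assignment to the nearest start and motif sites with 1 substitution were added after seeing the data. Replicates were not described as separate flies or cultures beyond being biological replicates.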

Additional observations from a re-analysis of the deposited data

How the results depend on the processing

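No paired analysis was possible because the 2 replicates form 1 group and no test was run. Of 59 values recomputed under alternatives, 48 stayed within 1.5 times the reported value or, for the ratio, 1 SD over the 10 regions, and 11 did not. The 48 include values of 0 that stayed at 0. They also include the change from 4 to 6 genes, which lies exactly at the limit. Optimal regions at the 10 genes fell from 10 to 5 with summits within 500 bp of a start. That rule lowered the share of all protein-coding genes with a region from 22.5% to 15.1%. The count also fell to 5 with the higher-signal 50% of the set, which by construction drops 50% of all optimal regions. Other Polycomb group genes with a region fell from 11 to 6 with that stricter set. They fell to 7 when each region went only to the gene with the nearest start. The share of all protein-coding genes with a region fell alongside, from 22.5% to 12.9% and to 13.6%. Windows of 101 bp and 501 bp gave GCCAT in 1 and 6 of the 10 regions, GAGAG in 3 and 9, and TGAGTG in 0 and 5. Over all optimal regions they gave GCCAT in 16.5% and 57.5%, GAGAG in 14.7% and 55.9%, and TGAGTG in 5.19% and 26.5%. TNAAGGTCA with 1 substitution allowed was in 1 of the 10 regions, beside 13.8% of all optimal regions. With 1 replicate's first 2892 regions in place of the set, 4 to 6 of the 10 genes had a region, beside 21.8% to 22.9% of protein-coding genes. The regions numbered 10 with either replicate but were not the same 10, since ph-p held 3 in replicate 2 and 5 in replicate 3. Other Polycomb group genes with a region numbered 11 with either replicate, and trithorax group genes 11 to 14. Replicate 3 alone gave ph-p, ph-d, Psc and Su(z)2, and replicate 2 alone gave those with Pc and E(z). The 3000 highest pooled regions added ph-d and E(z) to the 4 genes. With the nearest start only, Pc was lost. Unknown depth, the lack of a control list and the presence of only 2 replicates limit these values, and no interval can be given for a signal.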

Other observations

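The nearest optimal regions of Scm, esc, E(z), pho and ph-d lay outside the distance rule. For Scm it was 5828 bp away, with a signal of 146.8 (rank 630), 112 bp from a start of SpdS, which encodes spermidine synthase. For esc it was 12852 bp away, with a signal of 139.2 (rank 690), and for E(z) it was 18858 bp away, with 82.5 (rank 2051). For pho it was 68375 bp away, with 142.9 (rank 667), in sequence whose nearest start, of Cals, was 9712 bp off. For ph-d the nearest was the intronic ph-p region described above, 11170 bp away.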
